A study of Rattus norvegicus with 3 samples.

Results

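Genes that mark lymphatic vessels were measured in 3 soft tissues of the rat upper jaw. The set comprised the 8 genes Lyve1, Flt4, Prox1, Pdpn, Nr2f2, Foxc2, Reln and Stab1, taken by symbol from the probe-set annotation. All 8 were found, with 15 probe sets (groups of short probes read together) among them, of 14217 named genes and 31099 probe sets in the table. Laser-microdissected connective tissue was peri-implant (PICT), oral mucosal (OMCT) or periodontal (PCT), with 1 array each. All came from male, wild-type Sprague Dawley rats aged 9 weeks. For PICT and OMCT an upper first molar had been removed at 5 weeks of age, and tissue was taken 4 weeks later; PICT lay around a titanium alloy implant set in the socket at once, OMCT at a socket left without one. PCT was taken beside an upper first molar in place. The design text once calls the PCT animals mice, while every sample label says rat. The labels do not give the number of animals per array.

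Lymphatic capillaries drain fluid and immune cells from tissue, and in the gums they run beneath the epithelium. Their endothelium arises mostly from veins: the transcription factors Sox18 and Nr2f2 switch on Prox1, and Prox1 then sets and keeps lymphatic identity. Growth is driven by Vegfc and Vegfd, which act through the receptor Flt4. Several of the markers are shared with other cells, since tissue macrophages also make Lyve1 and Stab1, and fibroblasts and basal keratinocytes make Pdpn.

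Promoters of Lyve1, Flt4 and Stab1, the members with the largest differences between OMCT and PCT, are printed to give their sequence context. The RefSeq table (build GRCr8) held 5 of the 8 members, with 250 bases before and 50 bases after each start; Prox1, Nr2f2 and Foxc2 had no entry. Capitals mark matches, on either strand, to 7 motifs searched. These were the nuclear receptor half-site AGGTCA, the letters AGGAAG bound by ETS factors, ACAAAG bound by SOX factors, AGATAA bound by the GATA family, TGTTTA bound by forkhead factors, the promoter element TATAAA, and finally GGGCGG bound by the SP and KLF families.
Lyve1, chr1:174410928-174411227, minus strand: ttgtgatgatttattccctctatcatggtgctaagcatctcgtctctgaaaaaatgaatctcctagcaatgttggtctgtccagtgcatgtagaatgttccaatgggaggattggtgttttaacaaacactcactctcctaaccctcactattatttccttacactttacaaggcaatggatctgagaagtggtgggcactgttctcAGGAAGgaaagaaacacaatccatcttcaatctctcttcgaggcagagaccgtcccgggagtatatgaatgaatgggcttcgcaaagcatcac
Flt4, chr10:34414584-34414883, plus strand: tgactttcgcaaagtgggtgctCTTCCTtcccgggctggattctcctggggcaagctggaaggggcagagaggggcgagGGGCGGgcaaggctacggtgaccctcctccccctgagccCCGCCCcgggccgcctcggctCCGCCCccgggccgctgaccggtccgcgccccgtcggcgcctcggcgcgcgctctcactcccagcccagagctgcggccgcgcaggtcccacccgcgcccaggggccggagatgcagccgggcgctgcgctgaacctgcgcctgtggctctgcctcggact
Stab1, chr16:6367310-6367609, minus strand: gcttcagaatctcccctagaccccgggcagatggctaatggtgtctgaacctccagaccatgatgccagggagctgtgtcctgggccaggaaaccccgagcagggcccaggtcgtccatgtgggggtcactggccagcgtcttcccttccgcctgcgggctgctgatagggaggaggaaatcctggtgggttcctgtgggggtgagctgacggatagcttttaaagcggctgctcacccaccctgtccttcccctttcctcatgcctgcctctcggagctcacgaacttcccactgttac

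The Lyve1 window held the ETS letters once, from base 208 on its plus strand (bases counted from the 5′ end), and the Flt4 window held them once, from base 23 on the other strand. These letters stand in 34.5% of all 33469 promoters of the same length. The Flt4 window also held the SP/KLF letters 3 times, from bases 80, 119 and 140, letters found in 33.1% of all promoters. Stab1 matched none of the 7. Matches from different motifs did not overlap in these windows. GC content was 43.3% for Lyve1, 75% for Flt4 and 61% for Stab1, against a median of 51.7% over all promoters. The Lyve1 window held 5 CG pairs and that of Flt4 held 33.

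With 1 array per tissue there was no spread between replicates, no test between tissues was possible, and the number of arrays limits the precision. Array medians were 56.5 in PICT, 57.4 in OMCT and 34.3 in PCT, so the deposited arrays did not share a level. Differences are therefore given on the log2(intensity + 8.56) scale relative to each array's median, unless "as deposited" is written; this scale understates differences of dim genes. On that scale the array medians differed by 0.60 for PICT minus PCT, by -0.02 for PICT minus OMCT and by 0.62 for OMCT minus PCT, the shift that as-deposited values also contain. The 2-fold rule used here calls a gene higher or lower when its log2 difference is at least 1 and the brighter array is at or above its median. As a technical gauge, probe sets of the same gene differed in their log2 difference with an SD of 0.44 for PICT minus PCT and 0.41 for each other comparison. The 3′ to 5′ signal ratio of the Hk1 control, which grows as RNA is shortened, was 1.58 in PICT, 1.97 in OMCT and 2.80 in PCT; its part in the differences from PCT was not tested. Although labelled as connective tissue, all 3 arrays carried bright signal of the basal keratin Krt5, at 7964.7 in PICT, 8595.4 in OMCT and 9565.3 in PCT, beside that of the fibroblast collagen Col1a1, at 5552.4, 8189.2 and 6651.2.

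OMCT carried the highest signal of the lymphatic markers. As deposited, all 15 probe sets were brightest in OMCT; relative to the array medians 13 were, and the other 2 (1 of Prox1 and 1 of Foxc2) were highest in PCT. Over all named probe sets, 25.2% were highest in PICT on the relative scale, 31.6% in OMCT and 43.1% in PCT. No such share was computed as deposited, where the PCT array had a lower median (34.3, against 57.4 in OMCT). PICT gave the lowest relative value for 10 of the 15 probe sets and PCT for 5. The share of all probe sets lowest in each tissue was not computed, so this count has no background. In bulk tissue, fewer cells of a type and less RNA per cell cannot be told apart.

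**Figure D1:**
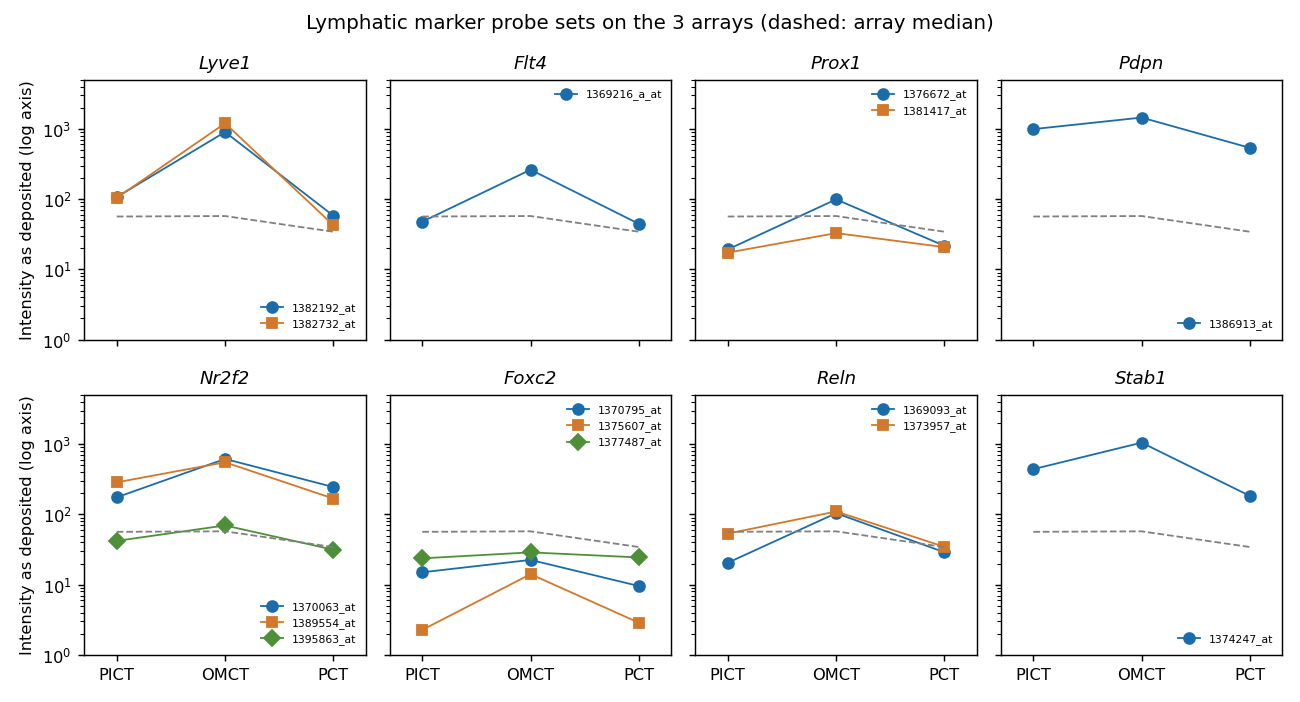
Intensity as deposited (log axis) of every probe set of the 8 lymphatic markers on the PICT, OMCT and PCT arrays, 1 array per tissue; symbols stand for probe sets, lines only join them, and the dashed line is the median of all probe sets on each array. All 15 probe sets have their highest point in OMCT, and the 3 of Foxc2 stay under the array medians.

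Lyve1, the hyaluronan receptor of lymphatic capillaries, differed most. Its probe set 1382192_at had an intensity of 107 in PICT, 901 in OMCT and 57.9 in PCT, and its second probe set, 1382732_at, had 104, 1198.6 and 42.4 in the same tissues. PICT and PCT were both far under OMCT on each probe set. As deposited, OMCT was 15.6 times PCT for the first probe set and 28.3 times for the second. The relative log2 differences were 0.20 and 0.54 for PICT minus PCT, -2.96 and -3.40 for PICT minus OMCT, and 3.15 and 3.94 for OMCT minus PCT. Among the 9854 genes with an array at or above its median, Lyve1 was number 36 from the top by OMCT minus PCT.

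Flt4, the receptor tyrosine kinase that receives Vegfc and Vegfd, was likewise far higher in OMCT than in the other tissues. It has 1 probe set, with 47.7 in PICT, 262 in OMCT and 44.4 in PCT. The OMCT signal was 5.90 times that of PCT as deposited, and PICT was 0.182 times OMCT. Relative differences were -2.25 for PICT minus OMCT and 1.73 for OMCT minus PCT. Between PICT and PCT the difference was -0.51 relative and 0.09 as deposited, so its direction turned with the scaling.

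Prox1, the homeobox factor that defines lymphatic endothelial cells, was dim outside OMCT. Its brighter probe set, 1376672_at, had 19.2 in PICT, 99.1 in OMCT and 21.6 in PCT, and lay above the array median in OMCT only. Its relative differences were -1.93 for PICT minus OMCT, 1.21 for OMCT minus PCT and -0.72 for PICT minus PCT. The dimmer probe set, 1381417_at, had 17.3, 32.8 and 20.7 in PICT, OMCT and PCT, with -0.66 for PICT minus OMCT and -0.12 for OMCT minus PCT, so the probe sets disagreed on OMCT against PCT. When the median over probe sets stood for the gene, Prox1 differed by 0.54 between OMCT and PCT, under 2-fold.

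Stab1, a scavenger receptor of macrophages and of lymphatic and sinusoidal endothelium, was graded over the tissues. It had 440 in PICT, 1050.5 in OMCT and 183 in PCT on 1 probe set. PICT thus stood between the other tissues, with relative differences of -1.22 from OMCT and 0.63 from PCT (1.23 as deposited, past 2-fold). OMCT minus PCT was 1.85.

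Nr2f2, the nuclear receptor of venous and lymphatic endothelium that many mesenchymal cells also make, has 3 probe sets. The one that stands for the gene, 1389554_at, had 286 in PICT, 552 in OMCT and 168 in PCT. Probe set 1370063_at had 175, 616 and 245, and probe set 1395863_at had 42, 69.6 and 31.4, in PICT, OMCT and PCT. OMCT was highest on each, and the order of PICT and PCT depended on the probe set. Relative to array medians, PICT minus PCT was 0.14, -1.07 and -0.26, PICT minus OMCT was -0.91, -1.75 and -0.61, and OMCT minus PCT was 1.04, 0.68 and 0.35 for these probe sets. Its 2-fold difference between OMCT and PCT was reached on 1 probe set only. With quantile normalization, where the probe set was chosen after scaling, the gene stood at 0.65, near the 0.68 of 1370063_at.

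Pdpn, the mucin-like podoplanin that holds blood and lymph vessels apart by binding platelets, was bright everywhere. It had 991 in PICT, 1447.2 in OMCT and 536 in PCT. The order was OMCT, PICT, PCT, and no difference reached 2-fold relative to the array medians. Relative differences were 0.27 for PICT minus PCT, -0.52 for PICT minus OMCT and 0.80 for OMCT minus PCT (1.42 as deposited).

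Reln, a secreted glycoprotein of neurons that collecting lymphatics also make in mice, was above the array median in OMCT on both probe sets. Both were under it in PICT. Probe set 1373957_at had 53.3 in PICT, 110 in OMCT and 34.6 in PCT, and probe set 1369093_at had 20.5, 104 and 28.9. Both were highest in OMCT. PICT minus PCT was -0.08 on the first and -0.97 on the second relative to array medians, and 0.52 and -0.37 as deposited. The PICT minus OMCT difference was -0.92 and -1.94 on these probe sets, and OMCT minus PCT was 0.83 and 0.97. Foxc2, a forkhead factor required for lymphatic valves, lay under the median of every array on all 3 probe sets. Its brightest, 1377487_at, had 23.7 in PICT, 28.8 in OMCT and 24.4 in PCT. Probe set 1375607_at had 2.27 in PICT, 14.1 in OMCT and 2.87 in PCT, beside brightest negative controls of 8.36, 3.60 and 5.71, so it was above its control in OMCT alone.

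Of the 8 markers, 7 had an array at or above its median and so could be counted, and Foxc2 could not. Of all 14217 genes 9854 had one, so the shares of all genes include genes that could not be counted. By the 2-fold rule, 5 of the 8 markers were higher in OMCT than in PCT (Lyve1, Flt4, Prox1, Nr2f2 and Stab1), against 5.66% of all genes. None was lower, where 4.81% of all genes were. As deposited 7 were higher, all but Foxc2, against 17.6% of genes, and 0 were lower, against 2.1%. In PICT minus OMCT, 4 markers were lower (Lyve1, Flt4, Prox1 and Stab1) against 4.46% of all genes, and 0 were higher against 4.15%. As deposited the same 4 were lower, against 4.64%, and 0 higher, against 3.98%. In PICT minus PCT, 0 of 8 were higher and 0 lower, against 3.98% and 3.37%. As deposited 1 was higher (Stab1), against 14.1%, and 0 lower, against 0.9%. Median differences of the 8 were 1.13 for OMCT minus PCT, -1.07 for PICT minus OMCT and 0.03 for PICT minus PCT. Over all genes these medians were -0.08, -0.04 and -0.13. The comparisons with OMCT share its array, so they do not stand for separate observations of the markers.

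**Figure D2:**
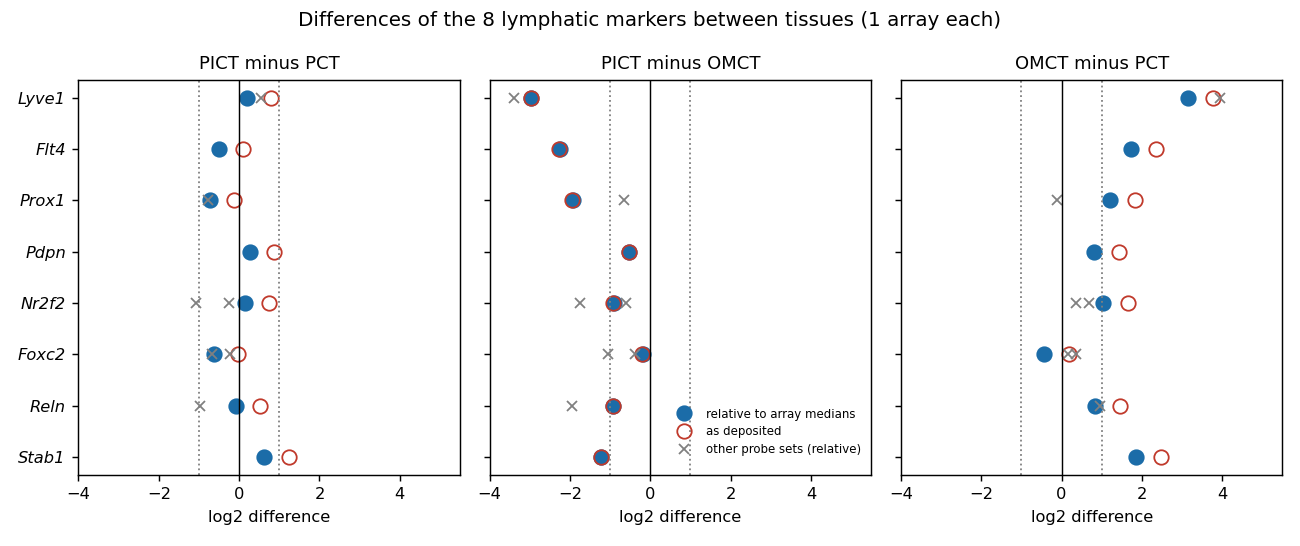
Log2 differences of the 8 lymphatic markers for PICT minus PCT, PICT minus OMCT and OMCT minus PCT; filled circles are relative to array medians, open circles as deposited, crosses the gene's other probe sets, dotted lines 2-fold. Lyve1 lies farthest from 0 in both comparisons with OMCT (-2.96 and 3.15), and the filled circles for PICT minus PCT stay within 2-fold.

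Other genes of lymphatic growth, patterning and function were taken from a list of 38, of which 32 were measured. Each is given by its probe set with the highest mean only. Some, such as Calcrl, Itga9, Nrp2, Gata2, S1pr1 and Kdr, have 2 probe sets, and the dimmer one was not compared. Relative to array medians, 7 were higher in OMCT than in PCT and 1 was lower, with a median of 0.34, against 5.66% and 4.81% of all genes. Higher were Mmrn1, Ccl21, Itga9, Sema3a, Nrp2, S1pr1 and Angpt2. In PICT minus OMCT 6 were lower (4.46% of all genes were) and 0 higher (median -0.45), namely Mmrn1, Ccl21, Itga9, Sema3a, Angpt2 and Ramp2. In PICT minus PCT 2 were lower, Calcrl and Gata2, against 3.37% of all genes, and 0 higher (median -0.12). As deposited, 15 of 32 were higher and 0 lower for OMCT minus PCT, against 17.6% of all genes higher. For PICT minus PCT 5 of 32 were higher and 0 lower as deposited, a share near the 14.1% of all genes.

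Mmrn1, a secreted adhesive protein of platelets, blood endothelium and lymphatic endothelium, had 120 in PICT, 832 in OMCT and 85.2 in PCT, with -2.68 for PICT minus OMCT and 2.54 for OMCT minus PCT. Ccl21, the chemokine by which lymphatic vessels draw in dendritic cells, had 110 in PICT, 586 in OMCT and 72.7 in PCT, with differences of -2.30 and 2.25. Itga9, an integrin chain needed for lymphatic valves, had 73.5, 302 and 47.9 in PICT, OMCT and PCT. These genes shared with Lyve1 and Flt4 a signal that was high in OMCT alone. It was not particular to lymphatic genes. The fibroblast genes Pcolce (91.6, 557 and 96.1) and Thy1 (366, 1643.0 and 168) had it too, in PICT, OMCT and PCT. PICT minus PCT was -0.14 for Mmrn1, -0.05 for Ccl21 and -0.06 for Itga9, within the SD between probe sets; as deposited these were 0.46, 0.55 and 0.54.

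The growth factors themselves differed less. Vegfc had 134 in PICT, 203 in OMCT and 80.6 in PCT, with -0.55 for PICT minus OMCT and 0.62 for OMCT minus PCT. Vegfd was dim, at 19.4 in PICT, 12.2 in OMCT and 17.7 in PCT, and was not brightest in OMCT. Ccbe1, a secreted protein needed to release active Vegfc, had 134, 152 and 48.7 in PICT, OMCT and PCT. Among the receptors, Nrp2, a co-receptor for Vegfc, had 671 in PICT, 1348.8 in OMCT and 338 in PCT, with -0.98 for PICT minus OMCT and 1.35 for OMCT minus PCT. Kdr, the main Vegfa receptor of blood endothelium, had 576, 774 and 432 in these tissues, with 0.21 for OMCT minus PCT.

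Angiopoietins and their receptors were not all highest in OMCT. Angpt2, a ligand needed for lymphatic remodelling, had 50.8 in PICT, 141 in OMCT and 38.3 in PCT, whereas Angpt1 had 71.3, 38.3 and 27.5. Their receptor Tek had 592, 588 and 486, and the related Tie1 had 230, 447 and 257. The adrenomedullin receptor Calcrl, which lymphatic endothelium uses for growth, was highest in PCT on both scales, on the brighter of its 2 probe sets. It had 275 in PICT, 315 in OMCT and 453 in PCT, with -1.31 for PICT minus PCT and -1.13 for OMCT minus PCT. As deposited these were -0.71 and -0.51, under 2-fold. Its partner Ramp2 had 74.7, 173 and 92.5 in PICT, OMCT and PCT, a difference of -1.10 for PICT minus OMCT.

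The transcription factors on the list differed by less than 2-fold between OMCT and PCT relative to array medians. Sox18, which works upstream of Prox1, had 7.37 in PICT, under the brightest negative control there, 32.8 in OMCT and 10.6 in PCT. Gata2, a factor of lymphatic valves, had 37.6, 58.5 and 53.7 in PICT, OMCT and PCT, with -1.03 for PICT minus PCT (-0.43 as deposited). Relative OMCT minus PCT differences were 0.07 for Foxc1, 0.78 for Nfatc1, 0.52 for Hhex, 0.75 for Klf2 beside -0.06 for the mechanosensitive channel Piezo1. S1pr1, the sphingosine phosphate receptor of endothelium and lymphocytes, had 707 in PICT, 842 in OMCT and 243 in PCT, and was higher in OMCT than in PCT by 1.14. Sema3a, a guidance cue that shapes lymphatic valves, had 91.7, 281 and 55.8 in PICT, OMCT and PCT. The remaining measured genes past the median on some array, Ephb4, Gja1, Gja4, Clec14a, Ackr2, Ackr3 and Plxnd1, were within 2-fold in all 3 comparisons relative to array medians.

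**Figure D3:**
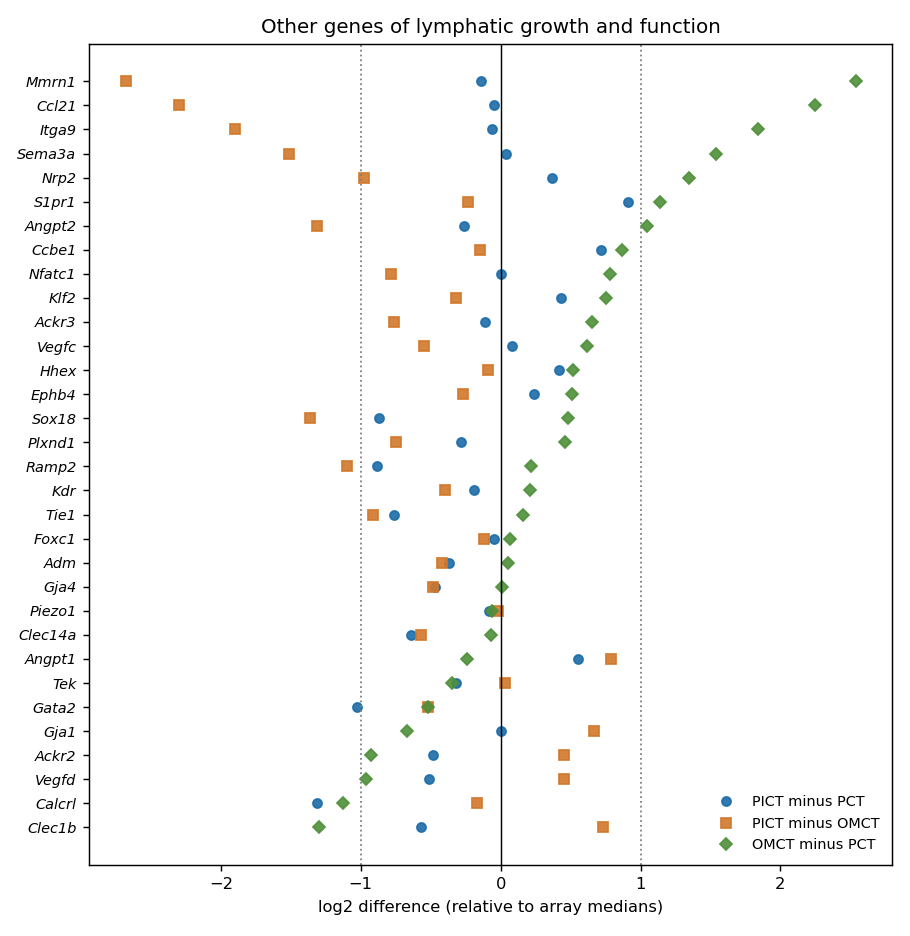
Log2 differences relative to array medians of the 32 measured genes of lymphatic growth and function, sorted by OMCT minus PCT; circles are PICT minus PCT, squares PICT minus OMCT, diamonds OMCT minus PCT, dotted lines 2-fold. Mmrn1, Ccl21 and Itga9 lie at 2.54, 2.25 and 1.84 for OMCT minus PCT and near 0 for PICT minus PCT.

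Blood endothelium was set beside the lymphatic markers, since both belong to vessels. Of the 8 lymphatic markers 5 were higher in OMCT than in PCT (median 1.13), next to 1 of 21 measured blood endothelial genes (Eng, a TGF-beta co-receptor, at 1.03; list median 0.21) and 5.66% of all genes. As deposited these counts were 7 of 8 (median 1.75) and 8 of 21 (median 0.83), against 17.6% of all genes. None of the 21 was lower in OMCT than in PCT on either scale, against 4.81% of all genes relative to array medians and 2.1% as deposited. Pecam1, the adhesion molecule of all endothelium, had 295 in PICT, 795 in OMCT and 437 in PCT. Plvap, the diaphragm protein of fenestrated capillaries, had 59, 329 and 204. In PICT minus OMCT 10 of 21 blood endothelial genes were lower and 0 higher (median -0.91), next to 4 of 8 lymphatic markers (median -1.07) and 4.46% of all genes. In PICT minus PCT 7 of 21 were lower and 0 higher (median -0.76), next to 0 of 8 lymphatic markers (median 0.03) and 3.37% of all genes lower. As deposited, 2 of the 21 were lower and 1 higher (median -0.15), against 0.9% and 14.1% of all genes. The difference between these lists has no test with 1 array per tissue.

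Genes of tissue macrophages, which share Lyve1 and Stab1, also had their highest summed signal as deposited in OMCT and their lowest in PCT. That of the markers had this order too, at 1968.5 in PICT, 4450.6 in OMCT and 1069.2 in PCT. Such a sum is weighted to bright genes, here Pdpn and Stab1, which other cells also make. Pdpn gave 991, 1447.2 and 536 of it and Stab1 440, 1050.5 and 183, in PICT, OMCT and PCT. Sums as deposited also contain the lower level of the PCT array. Of 16 measured macrophage genes, 13 were higher in OMCT than in PCT (median 2.36), against 5.66% of all genes, and 0 were lower. In PICT minus PCT 9 were higher (median 1.46), against 3.98%, and 0 lower, next to 0 of 8 lymphatic markers (median 0.03). Relative to array medians the 2 lists thus differed in how PICT stood to PCT. In PICT minus OMCT 5 were lower (median -0.59), against 4.46%, and 0 higher. The summed intensity of the list as deposited was 4997.5 in PICT, 7922.9 in OMCT and 1178.8 in PCT. Mrc1, the mannose receptor, had 464 in PICT, 699 in OMCT and 18.1 in PCT, and the folate receptor Folr2, another mark of resident macrophages, had 271, 324 and 11.7. Both were high in PICT as well as OMCT, where Lyve1 was high in OMCT alone. The complement genes C1qa (186, 758 and 59.8) and C1qb (32.3, 233 and 23.9) and the membrane protein Ms4a7 (99.3, 533 and 19.7) were highest in OMCT, with PICT minus OMCT at -1.96, -2.54 and -2.31. For PICT minus PCT, C1qb stood at -0.27 and the complement gene C1qc at 0.24, within 2-fold as Lyve1 was (0.20). Both were higher in OMCT than in PCT, by 2.27 and 1.83. A signal high in OMCT alone was thus seen in macrophage genes too. F13a1 in PICT (2.60) was under the brightest negative control, and none of the 16 was at 0. The part of macrophage RNA in the Lyve1 and Stab1 signals was not tested.

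Fibroblast and epithelial genes also moved with the comparison of OMCT. Of 14 fibroblast genes 8 were higher in OMCT than in PCT (median 1.15), against 5.66% of all genes, and 5 were lower in PICT than in OMCT (median -0.55), against 4.46%. Their summed intensity as deposited was 33332.4 in PICT, 52268.8 in OMCT and 23447.9 in PCT. The 5 lower in PICT than in OMCT were Dpt (-3.74, beyond the -2.96 of Lyve1), Pcolce (-2.48), Thy1 (-2.12), Pdgfra (-1.83) and Dcn (-1.28). Mfap5 in OMCT (0.984) was under the brightest negative control. Of 10 genes of differentiated oral epithelium, 9 were lower in OMCT than in PCT (median -4.99), against 4.81% of all genes, and 9 were higher in PICT than in OMCT (median 5.06), against 4.15%. Their summed intensity as deposited was 25366.3 in PICT, 2550.4 in OMCT and 21296 in PCT, while that of 10 basal epithelial genes was 26238.4, 26567.7 and 29529.6. Ivl in PICT (1.71) was under it too, on its own array. The part of these differences in tissue makeup in the lymphatic marker values was not tested. Smooth muscle and pericyte genes gave medians of 0.19 for OMCT minus PCT and -0.38 for PICT minus OMCT over 10 genes.

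**Figure D4:**
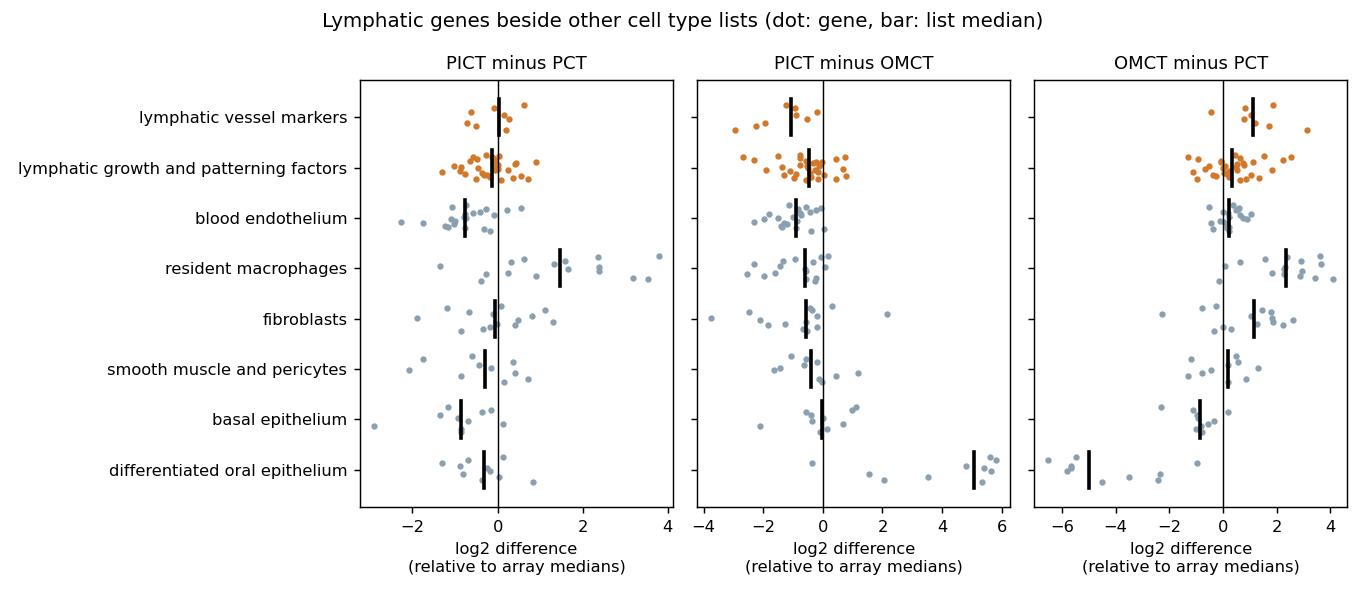
Log2 differences relative to array medians for each gene (dots) and list median (bars) in PICT minus PCT, PICT minus OMCT and OMCT minus PCT; lymphatic lists are orange and other cell type lists grey. For OMCT minus PCT the lymphatic markers have a median of 1.13, blood endothelium 0.21, macrophages 2.36 and differentiated oral epithelium -4.99.

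Genes whose values over the 3 arrays lay nearest to those of a marker were named by the smallest Euclidean distance between log2 values, each gene's own mean subtracted, among the other 9853 genes with an array at or above its median. With 3 arrays many genes share any pattern, so this is a description. Nearest to Lyve1 were Spats2l (distance 0.21), Masp1 (0.39), a protease of the lectin complement pathway, and Cemip (0.40), a protein that breaks down hyaluronan. Cemip had 69.5 in PICT, 457 in OMCT and 22.1 in PCT. Flt4 had Tc2n (0.03), the prohormone processing enzyme Cpe (0.08) and Itgbl1 (0.11) nearest. For Prox1 they were the secreted Wnt ligand Wnt5a (0.06), the growth factor receptor Fgfr1 (0.11) and the potassium channel subunit Abcc9 (0.12). Stab1 had Rnase4 (0.04), the collagen receptor Ddr2 (0.04) and the class II antigen loading gene RT1-DMa (0.05) nearest. Near Nr2f2 lay Twf2 (0.02), Meaf6 (0.02) and Col5a1 (0.03). Pdpn had Rrbp1 (0.01), Ccnyl1 (0.01) and Mcm3 (0.02) nearest, and Reln had Gas8 (0.02), Srpra (0.02) and Slc45a4 (0.03).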

How the data were processed

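RNA from PICT, OMCT and PCT, collected by laser microdissection and purified on RNeasy columns, was amplified and given a biotin label (GeneChip 3′IVT Express kit), per the labels' protocols. The authors deposited 1 linear intensity per probe set, from 0.0124 to 13104.2; their probe summary and array scaling are not given in the sources used here. Probe sets were named from the platform annotation of 2016: 20832 had 1 symbol, 436 several and 9831 none. Of 20826 named non-control probe sets, 20758 matched RefSeq by gene ID.

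Values were taken as log2(intensity + 8.56), the 20th percentile of all values, minus the array's median. The probe set with the highest mean after scaling stood for a gene, giving 14217 genes, and was chosen anew under each alternative that kept this rule. Negative controls were the TrpnX probe sets. With 1 array per tissue no test was run. Computations used Python 3.11.15, numpy 2.4.6 and pandas 2.3.3. The counting rule was run on simulated data as a check of the code. The simulation had less noise than the spread between probe sets here, and its changes were larger than 2-fold in bright genes only. It therefore does not show how the rule does on these data or on dim markers. Alternatives were no scaling, quantile normalization, other pseudocounts, no filter on dim probe sets, the median over probe sets and a log2 threshold of 1.5.

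The members and lists were chosen with earlier results of these data known. Named were all 8 markers, members of the lymphatic list with an array at or above its median (and Vegfc, Vegfd, Nrp2, Ccbe1, Ccl21 and Kdr in any case), up to 6 genes past the rule from each other list, and the 3 nearest patterns. Krt5, Col1a1, Dcn, Pecam1, C1qa, C1qb, C1qc, Sox18, F13a1, Mfap5 and Ivl were named after their values were seen.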

Additional observations from a re-analysis of the deposited data

How the results depend on the processing

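No paired analysis was possible because each tissue has 1 array. Lyve1 and Flt4 kept both 2-fold differences from OMCT under all 8 settings (the one reported and 7 alternatives), and Prox1 kept that of PICT minus OMCT. Prox1 was higher in OMCT than in PCT under 5 of 8 settings, and Nr2f2 under 4. Stab1 was higher in OMCT than in PCT under all 8, and lower in PICT than in OMCT under 7. No 2-fold difference of a marker changed sign. For PICT minus PCT, 1 marker was higher as deposited (Stab1), against 14.1% of all genes. With quantile normalization 1 marker was lower (Nr2f2, at -1.08), where 476 of all 14217 genes were. The Nr2f2 value lay near the -1.07 of probe set 1370063_at relative to array medians. Which probe set stood for the gene under quantile normalization was not recorded. With a log2 threshold of 1.5, 3 markers were higher for OMCT minus PCT. Over 120 marker values under other settings, 88 moved by less than the SD between probe sets. This count is partly fixed by the settings, so it does not gauge robustness. Leaving out the scaling adds the array shift to every marker alike, so 16 values moved and 8 did not. The median over probe sets cannot move a marker with 1 probe set. Counts over all genes moved more. As deposited, PICT minus PCT gave 2009 higher and 128 lower (566 and 479 relative), and OMCT minus PCT 2501 and 298 (805 and 684). With a pseudocount at the median, PICT minus PCT gave 130 lower, PICT minus OMCT 355 higher and 379 lower, and OMCT minus PCT 335 lower. Without the filter on dim probe sets, 945 were lower for PICT minus PCT and 1163 for OMCT minus PCT. At the threshold of 1.5, PICT minus PCT gave 283 higher and 148 lower, PICT minus OMCT 277 and 243, and OMCT minus PCT 410 and 351.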
